A study of Mus musculus with 18 samples.

Results

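The genes described here are 10 genes for transcription factors that control the myeloid lineage, namely Cebpa, Cebpb, Cebpd, Cebpe, Cebpg, Spi1, Gfi1, Irf8, Runx1 and Myb. They were found by matching the first 18 characters of each deposited Ensembl gene ID to the mouse symbols, which gave all 10 genes among 54347 in the table. They were read in leukemia stem cells (LSCs), the fraction of leukemic cells that sustains the disease, sorted by flow cytometry from bone marrow of C57BL/6JRj mice. The Prx1-Cxcl12-mutant group held 5 mice and the Prx1-Cxcl12-wild type group held 4 mice. Both groups carried leukemia, and the cells were taken 30 days after it was induced, 7000 cells per mouse. Each mouse gave 2 technical libraries, 18 in all, made from polyA RNA by a bulk form of MARS-seq, a method that reads the 3′ ends of transcripts. Cxcl12 is the chemokine with which marrow stroma holds haematopoietic cells in place, and Prx1 is the name of a promoter active in mesenchymal cells of limb bones. How Cxcl12 was altered, the leukemia driver, the sort markers, and the age and sex of the mice were not given in the sources used here, and nothing there says whether the leukemic cells carried the Cxcl12 allele themselves.

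C/EBP proteins are leucine zipper factors that bind DNA as dimers; C/EBPα opens the granulocyte-monocyte program in progenitors and C/EBPε acts in its late granule-forming steps. PU.1, the product of Spi1, works with IRF8 in monocyte and dendritic cell development, whereas GFI1 is a repressor that favours neutrophils over monocytes. RUNX1 and MYB act earlier, in stem and progenitor cells, and both are recurrent partners in myeloid leukemia.

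All 10 genes lie outside one another on GRCm38, by GENCODE mouse release 21. Cebpa spans chr7:35119293-35121928 on the plus strand, and Cebpg lies on the same chromosome at chr7:35046422-35056573 on the minus strand. Cebpb lies at chr2:167688915-167690418 and Spi1 at chr2:91082390-91115756, both on the plus strand. Cebpd lies at chr16:15887286-15891031 on the plus strand and Runx1 at chr16:92601466-92826149 on the minus strand. Cebpe lies at chr14:54710360-54712174, Gfi1 at chr5:107716657-107726036 and Myb at chr10:21124935-21160984, all on the minus strand, and Irf8 lies at chr8:120736358-120756694 on the plus strand. The strand setting of the counting was not given in the sources used here, so reads of overlapping genes may be shared. The overlapping genes with the most counts in any mouse were Spidr over Cebpd (1061 counts) and Tmem189 over Cebpb (923 counts), both on the opposite strand, then Gm20388 over Irf8 (226 counts) on the same strand and A430072P03Rik over Gfi1 (105 counts) on the opposite strand. For the other genes no overlapping gene passed 16 counts in a mouse.

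Promoter windows are shown for Gfi1, Irf8 and Myb, because the levels of these genes moved together or in opposite directions between mice, as described further on. Each window is the RefSeq promoter of GRCm38.p6 on the gene's own strand, 5′ to 3′, from 250 bases before to 50 bases after the start. Capitals mark the letters that matched a searched motif: TTNNGNAA for C/EBP, GAGGAAG for PU.1, TGTGGT for RUNX, TAACNG for MYB and AAATCA for GFI1, on either strand.
Gfi1, chr5:107725756-107726055, minus strand: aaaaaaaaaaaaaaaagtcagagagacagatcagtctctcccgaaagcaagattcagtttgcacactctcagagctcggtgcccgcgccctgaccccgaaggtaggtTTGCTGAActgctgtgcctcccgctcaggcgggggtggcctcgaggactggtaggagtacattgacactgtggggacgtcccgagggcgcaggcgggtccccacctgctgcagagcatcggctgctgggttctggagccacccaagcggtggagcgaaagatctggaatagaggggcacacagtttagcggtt
Irf8, chr8:120736108-120736407, plus strand: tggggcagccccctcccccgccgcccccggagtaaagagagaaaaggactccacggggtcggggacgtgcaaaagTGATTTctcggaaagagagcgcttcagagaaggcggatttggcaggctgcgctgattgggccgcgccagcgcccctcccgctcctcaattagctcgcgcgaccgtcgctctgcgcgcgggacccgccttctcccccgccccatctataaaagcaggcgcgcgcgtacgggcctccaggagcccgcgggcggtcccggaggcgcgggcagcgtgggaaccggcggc
Myb, chr10:21160935-21161234, minus strand: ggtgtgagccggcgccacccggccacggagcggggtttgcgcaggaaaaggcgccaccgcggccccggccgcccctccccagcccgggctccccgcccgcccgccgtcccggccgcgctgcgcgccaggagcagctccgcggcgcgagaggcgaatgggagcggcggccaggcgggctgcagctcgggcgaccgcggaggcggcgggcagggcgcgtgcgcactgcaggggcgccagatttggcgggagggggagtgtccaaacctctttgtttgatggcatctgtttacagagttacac
The Gfi1 window held C/EBP letters on the opposite strand that began at position -143 from the start. The Irf8 window held GFI1 letters on the opposite strand at position -175, and the Myb window held none of these letters. Among 32851 RefSeq windows of the same length, 40.7% held the C/EBP letters, 13.6% the PU.1 letters, 16.8% the RUNX letters, 23.3% the MYB letters and 14% the GFI1 letters. RefSeq windows were found for 7 of the 10 genes, 10 windows in all. Of these, a second window of Irf8 held GFI1 letters at position -226 and MYB letters at position 19. A window of Runx1 held RUNX letters at positions 29 and 37 and MYB letters at position -25. All of these matches were on the opposite strand. Cebpd, Cebpe and Spi1 were not among the windows. A match is a run of letters and not a measured site.

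Depth did not limit the detection of these genes. Total counts ran from 15959029 to 25485899 in mutant mice and from 11766467 to 16784991 in wild-type mice. Each of the 10 genes had between 391 and 8696 counts in every mouse, so all 10 passed the filter on low counts in every setting tried. Levels are given as CPM, the count of a gene relative to the library total, scaled by TMM factors. Levels are compared between mice for a gene, and differences in level between genes are not interpreted. Where markers are summed or ranked, CPM only shows which genes make up a sum. The progenitor markers Kit, Cd34, Meis1, Hoxa9, Hoxa10 and Mpo were detected in the sorted cells, and no marker of the 10 on the progenitor list averaged under 1 CPM.

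None of the 10 genes passed the test between mutant and wild-type LSCs, and 9 of the 10 had a log2 fold change below 0. Their log2 fold changes (mutant over wild type) had a median of -0.20, against 0.0089 for all 12973 tested genes, of which 48.3% lay below 0. Cebpe, the late granulocyte factor, was the lowest at -0.41, and Cebpd followed at -0.31. At an adjusted p under 0.05, edgeR called 9 genes in all, which is 0.0694% of those tested, and DESeq2 called 88 genes, in both cases with 0 of these 10. At an unadjusted p under 0.05, 3 of the 10 were lower (Cebpe, Cebpd and Runx1) and 0 were higher, against 4.89% lower and 4.96% higher over all tested genes. The mutant values lay wholly below the wild-type values for 1 of the 10, Cebpd, as for 2.13% of tested genes, and wholly above for 0, as for 1.87% of tested genes. In such bulk samples, fewer cells of a type and less RNA per cell cannot be told apart.

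**Figure D1:**
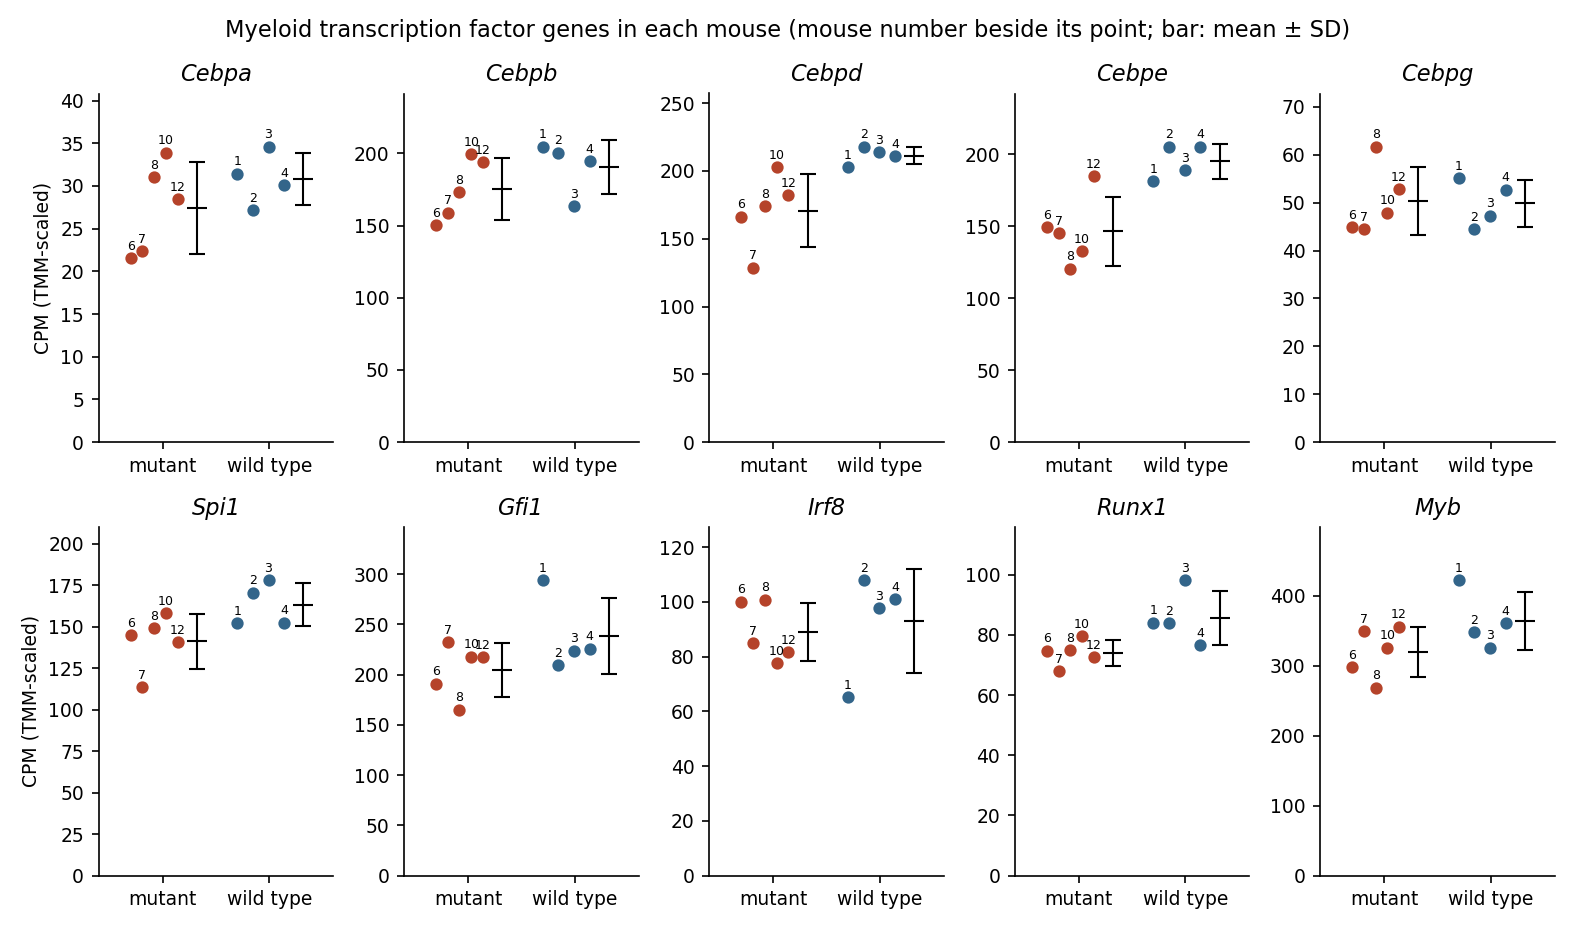
Level of each of the 10 transcription factor genes in CPM (y axes from 0, TMM-scaled) in 5 mutant mice (left, red) and 4 wild-type mice (right, blue), 1 point per mouse with its number, and mean ± SD beside the points. For Cebpd the highest mutant value, 202.7 CPM, lies under the lowest wild-type value, 202.9 CPM, whereas the groups overlap for the other 9 genes.

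Among the C/EBP genes, Cebpe differed most. Its level was 149.3, 145.0, 120.6, 132.6 and 184.6 CPM in mutant mice 6, 7, 8, 10 and 12, against 181.2, 205.3, 188.8 and 205.2 CPM in wild-type mice 1, 2, 3 and 4. In 4 of the 5 mutant mice it lay below the lowest wild-type value, and mutant mouse 12 alone lay within the wild-type range. The means were 146 ± 24.1 CPM in mutant LSCs (SD, n = 5) and 195 ± 12.1 CPM in wild-type LSCs (SD, n = 4). The log2 fold change of Cebpe was -0.41 ± 0.12 (SE), with an unadjusted p of 0.00397 in edgeR and an adjusted p of 0.303, the 169th smallest p of the tested genes. Limma-voom on all 18 libraries, with a random effect for mouse, put Cebpe past the threshold (-0.42 ± 0.09 SE, adjusted p = 0.0311), the only setting tried that did so for any of the 10. That fit called 61 of 11664 tested genes. It used the same correlation between libraries of a mouse for every gene, and the libraries differed least for Cebpe among the 10. The part of the shared correlation in the call of Cebpe was not tested. Limma-voom on the mouse sums gave Cebpe -0.43 ± 0.11 (SE, adjusted p = 0.291). With the total count of the mouse as a covariate, the log2 fold change of Cebpe was -0.30 ± 0.15 (SE, adjusted p = 0.982 in edgeR). The total counts moved with the groups, as given above, and their part in the difference was not tested beyond that fit.

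C/EBPε is also used in eosinophils, and markers of these cells were read beside it. The summed level of the 8 eosinophil markers ran from 113 to 184 CPM in mutant mice, against 199 to 311 CPM in wild-type mice, without overlap. All 5 of those tested had a log2 fold change below 0 and 0 were called. Prg2 and Prg3, for granule proteins, averaged 48.4 ± 21.7 and 40.1 ± 14.5 CPM in mutant mice, against 82.7 ± 16.5 and 86.3 ± 25.8 CPM in wild-type mice (SD, n = 5 and n = 4). Siglecf, a surface lectin of eosinophils, averaged 55.2 ± 7.62 CPM in mutant mice and 74.8 ± 12.7 CPM in wild-type mice. Of the defining genes, Epx averaged 0.894 CPM in mutant mice and 1.27 CPM in wild-type mice, and Ear6 was at 0 in every mouse. Il5ra averaged 0.726 ± 0.278 CPM in mutant mice and 1.53 ± 0.283 CPM in wild-type mice (SD), without overlap. Ear1 and Ear2, too low to be tested, averaged 0.216 and 0.0984 CPM in mutant mice, against 0.0511 and 0.0148 CPM in wild-type mice. The part of such cells in the Cebpe difference was not tested.

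Cebpd, an acute-phase member of the family, had 166.3, 128.6, 173.7, 202.7 and 182.2 CPM in mutant mice 6, 7, 8, 10 and 12, against 202.9, 217.8, 213.9 and 210.6 CPM in wild-type mice 1, 2, 3 and 4. The wild-type mice lay close together, and mutant mouse 7 was the lowest of all 9 mice. The groups did not overlap, although mutant mouse 10 lay just under wild-type mouse 1. Cebpd had a log2 fold change of -0.31 ± 0.12 (SE), with an unadjusted p of 0.0212 in edgeR and an adjusted p of 0.408. With total count as covariate it was -0.19.

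Cebpa, the factor that opens granulocyte-monocyte development, had 21.5, 22.4, 31.0, 33.9 and 28.5 CPM in the same mutant mice, against 31.4, 27.2, 34.6 and 30.1 CPM in the wild-type mice. Mutant mice 6 and 7 lay below every wild-type mouse and the other 3 mutant mice lay within the wild-type range. The log2 fold change was -0.17 ± 0.14 (SE, adjusted p = 0.716), and values without a mouse ran from -0.091 (without mutant mouse 6) to -0.25 (without mutant mouse 10). It was -0.099 with total count as covariate.

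Cebpb, which drives emergency granulocyte production, had 150.1, 158.9, 173.3, 199.3 and 193.9 CPM in the mutant mice, against 204.6, 200.5, 163.3 and 194.5 CPM in the wild-type mice. Mutant mice 6 and 7 were again the lowest, and the groups overlapped widely, with a log2 fold change of -0.12 ± 0.11 (SE, adjusted p = 0.737). That was -0.072 without mutant mouse 6, -0.19 without wild-type mouse 3 and -0.014 with total count as covariate. Cebpg, a dimer partner that lacks a strong activation domain of its own, had 44.9, 44.5, 61.7, 47.9 and 52.8 CPM in the mutant mice, against 55.0, 44.5, 47.3 and 52.7 CPM in the wild-type mice. Its groups covered much the same range apart from a high value in mutant mouse 8, and its log2 fold change of 0.015 ± 0.11 (SE, adjusted p = 0.973) fell below 0 with upper-quartile factors. The first libraries alone gave -0.18 and the second libraries alone 0.18.

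**Figure D2:**
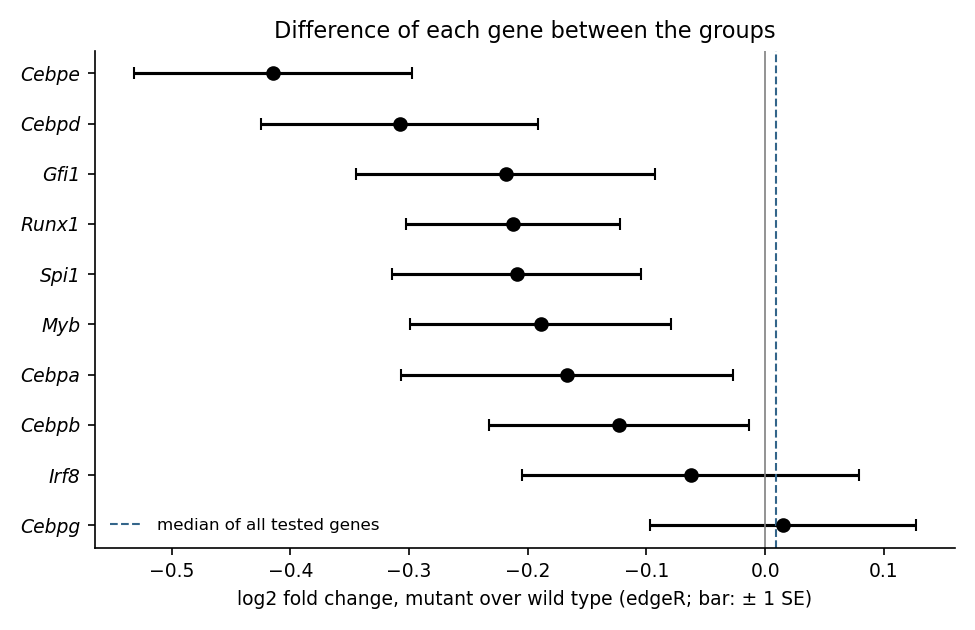
Log2 fold change of each gene, mutant over wild type (x axis, edgeR), with bars of ± 1 SE, beside the median of all 12973 tested genes (dashed line, 0.0089). Cebpe (-0.41) and Cebpd (-0.31) lie furthest below 0, and Cebpg (0.015) lies near the median of all genes.

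Spi1, which encodes PU.1, had 144.7, 113.7, 148.9, 158.0 and 140.5 CPM in mutant mice 6, 7, 8, 10 and 12, against 152.0, 170.4, 178.0 and 152.4 CPM in wild-type mice 1, 2, 3 and 4. Mutant mouse 10 alone reached into the wild-type range, and the other 4 mutant mice lay below it. The log2 fold change was -0.21 ± 0.11 (SE, adjusted p = 0.537).

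Irf8, the monocyte and dendritic cell factor, had 100.1, 84.8, 100.7, 77.6 and 81.6 CPM in the mutant mice, against 65.1, 107.9, 97.7 and 100.9 CPM in the wild-type mice. Wild-type mouse 1 was the lowest of all 9 and wild-type mouse 2 the highest, so the wild-type range enclosed every mutant value. The log2 fold change was -0.06 ± 0.14 (SE, adjusted p = 0.911). It turned to 0.015 without wild-type mouse 2, and was -0.20 without wild-type mouse 1 and -0.30 with total count as covariate.

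Gfi1, the neutrophil-promoting repressor, had 191.1, 232.5, 165.2, 217.9 and 217.3 CPM in the mutant mice, against 294.0, 209.6, 223.9 and 226.0 CPM in the wild-type mice. Mutant mice 6 and 8 lay below the wild-type range, and wild-type mouse 1, lowest for Irf8, was the highest. Its log2 fold change was -0.22 ± 0.13 (SE, adjusted p = 0.586), -0.10 without wild-type mouse 1 and -0.039 with total count as covariate.

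Of the early progenitor factors, Runx1 had 74.7, 67.8, 74.9, 79.5 and 72.6 CPM in mutant mice 6, 7, 8, 10 and 12, against 84.0, 83.8, 98.1 and 76.5 CPM in wild-type mice 1, 2, 3 and 4. The mutant values lay close together, 4 of the 5 below the lowest wild-type value. Runx1 had a log2 fold change of -0.21 ± 0.09 (SE), with an unadjusted p of 0.0354 in edgeR and an adjusted p of 0.457. Without wild-type mouse 3 the value was -0.14.

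Myb had 298.3, 349.0, 268.7, 326.0 and 355.7 CPM in the mutant mice, against 422.3, 347.9, 326.0 and 361.0 CPM in the wild-type mice. Mutant mice 6 and 8 were the lowest and wild-type mouse 1 was the highest, the same mice as for Gfi1. The log2 fold change was -0.19 ± 0.11 (SE, adjusted p = 0.590), -0.11 without wild-type mouse 1 and -0.043 with total count as covariate.

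No mouse was low for every gene. Against the wild-type median of each gene, mutant mice 6, 7, 8, 10 and 12 lay lower for 9, 9, 7, 8 and 8 of the 10 genes. Mutant mouse 7 was the lowest of the 9 mice for Cebpd, Cebpg, Spi1 and Runx1, mutant mouse 8 for Cebpe, Gfi1 and Myb, and mutant mouse 6 for Cebpa and Cebpb. Mutant mice 10 and 12 were neither the lowest nor the highest for any of the genes.

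How the spread between technical libraries stood to that between mice differed between genes. The SD of log2 CPM between the 2 libraries of a mouse ran from 0.079 (Cebpe) to 0.213 (Cebpg), and the SD between mice of a group from 0.116 (Runx1) to 0.253 (Irf8). For 6 of the 10 genes the SD between mice exceeded that between libraries, among them Cebpe (0.183 between mice, 0.079 between libraries) and Irf8 (0.253 between mice, 0.126 between libraries). The SD between mice was taken on sums of 2 libraries, which carry less library noise than a single library. These SDs are thus not on the same footing, and the count may understate the genes in which mice differed more. The largest gap between the 2 libraries of a mouse fell in mutant mouse 7 for 5 genes. There Cebpb read 136 CPM in the first library and 190 CPM in the second, Cebpd 114 and 149 CPM, Cebpe 135 and 158 CPM, Irf8 74.9 and 98.4 CPM, and Myb 378 and 305 CPM. Without the first library of that mouse, the log2 fold change was -0.39 for Cebpe and -0.27 for Cebpd, and 5 of the 10 genes had an unadjusted p under 0.05 in edgeR, all lower (Cebpe, Cebpd, Runx1, Gfi1 and Myb), against 4.81% of all genes tested in that fit. None of the 10 was called in that fit either, with adjusted p between 0.344 (Cebpe) and 0.98 (Irf8).

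Ratios of opposing or successive factors within a mouse do not depend on the scaling between mice. The balance of Gfi1 to Irf8, neutrophil against monocyte, had log2 count ratios of 0.93, 1.46, 0.71, 1.49 and 1.41 in mutant mice 6, 7, 8, 10 and 12, against 2.17, 0.96, 1.20 and 1.16 in wild-type mice 1, 2, 3 and 4. Wild-type mouse 1 stood above all others. The mutant mean less the wild-type mean was -0.17 ± 0.32 (SE) and turned to 0.095 without wild-type mouse 1. The log2 ratio of Cebpe to Cebpa, late against early factor, averaged 2.42 ± 0.42 in mutant mice and 2.66 ± 0.22 in wild-type mice (SD), a difference of -0.24 ± 0.22 (SE), which was -0.13 without mutant mouse 8 or 10 and -0.16 without wild-type mouse 2. For Cebpa over Spi1 the difference was 0.03 ± 0.13 (SE) and for Cebpb over Cebpa 0.06 ± 0.15 (SE). The 2-sided exact permutation test over 126 regroupings gave p = 0.611 for Gfi1 over Irf8, 0.349 for Cebpe over Cebpa, 0.738 for Cebpa over Spi1 and 0.722 for Cebpb over Cebpa. Each of these 4 had an adjusted p of 0.738 by the exact test with Benjamini-Hochberg adjustment, and the smallest p the design allows is 0.00794.

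Across mice, levels of some of these genes moved together. Correlations of log2 CPM over the 9 mice are given as a description of 45 pairs, and the 9 points share depth and library preparation. Gfi1 and Myb had a Pearson r of 0.95 (Spearman rho 0.77), 0.93 after removal of the group means, and 0.72 without mutant mouse 8 and wild-type mouse 1, the mice farthest from the median of Gfi1. Cebpd and Spi1 had an r of 0.92 (rho 0.88), 0.88 after removal of the group means and 0.76 without mutant mice 6 and 7. For Spi1 and Runx1 r was 0.87 (rho 0.90), 0.78 after removal of the group means and 0.81 without mutant mouse 7 and wild-type mouse 3.

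Irf8 ran against Gfi1 and Myb. For Gfi1 and Irf8 r was -0.72 (rho -0.50), -0.90 after removal of the group means and -0.35 without mutant mouse 8 and wild-type mouse 1. For Irf8 and Myb r was -0.62 (rho -0.33), -0.80 after removal of the group means and -0.34 without mutant mouse 10 and wild-type mouse 1. Both negative relations rested in large part on the mice left out, among them wild-type mouse 1, in which Gfi1 and Myb were highest and Irf8 lowest. That mouse also had the lowest total count of the 9, 11766467, and the part of depth in these relations was not tested.

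**Figure D3:**
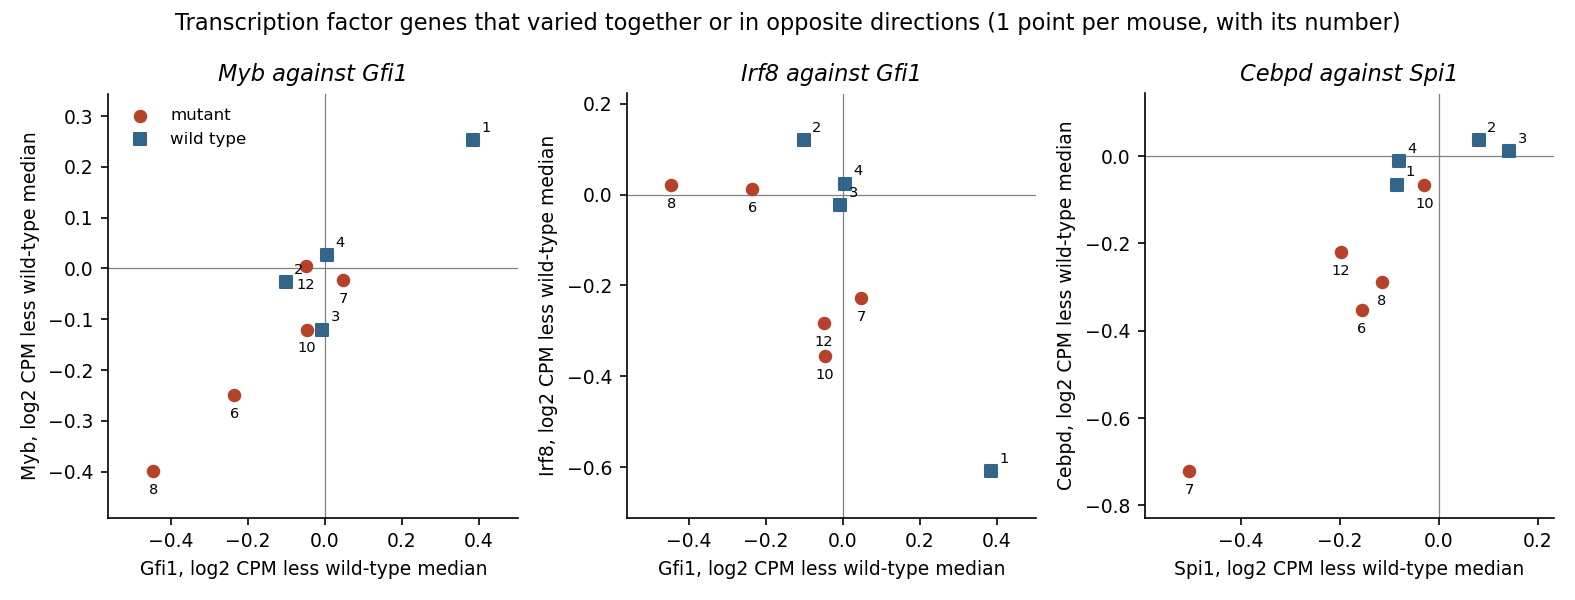
Levels of pairs of the genes in each mouse, as log2 CPM less the wild-type median of that gene on both axes, for 5 mutant mice (red circles) and 4 wild-type mice (blue squares), each with its number. Gfi1 and Myb vary together across mice (r = 0.95) as do Spi1 and Cebpd (r = 0.92), whereas wild-type mouse 1 stands alone at high Gfi1 and low Irf8.

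The genes whose pattern over the 9 mice was most like that of a factor were sought among 8428 protein-coding genes with a mean of at least 5 CPM. Over 9 mice the best of so many genes can reach a high r by chance, so these values are a description without a test. Nearest to Cebpa were Anks1 (r = 0.96), Dcakd (0.95) and P3h1 (0.94). Nearest to Cebpe were Mblac2 (0.95), Ccpg1 (0.95) and Sgsm2 (0.94). Nearest to Spi1 were Dnal4 (0.97), Emilin1 (0.97) and Mxd4 (0.96), with Cebpd at place 26 and Runx1 at place 97. Nearest to Irf8 were Bscl2 (0.94), Napsa (0.93) and Cd68 (0.91). Nearest to Myb were Pfas (0.95), Ddx17 (0.95) and Paip2 (0.95), with Gfi1 at place 4.

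Other genes of the same regulatory circuits were read from lists of known partners and targets. Of 36 partner and opposing transcription factors, 26 were tested, 5 with a log2 fold change above 0 and 21 below, with a median of -0.22, and edgeR called 0 of them. At an unadjusted p under 0.05 in edgeR, 8 were lower and 0 higher. Over all tested genes 4.89% were lower and 4.96% higher at that level, shares that apply to each list below. The lists share some genes, so their counts are not separate observations. Klf4 and Jun, both lower at that level, are also on the list of early response genes, and Klf4 is on that of monocyte and phagocyte genes. Gata2, a stem cell and mast cell factor that PU.1 opposes, had 17.2, 21.2, 15.5, 14.8 and 24.5 CPM in mutant mice 6, 7, 8, 10 and 12, against 40.6, 24.8, 36.9 and 27.4 CPM in wild-type mice 1, 2, 3 and 4. The groups did not overlap, and the log2 fold change was -0.80 ± 0.18 (SE, adjusted p = 0.176 in edgeR). DESeq2 and limma-voom on the 18 libraries called Gata2, with the smallest adjusted p at 0.00873.

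Id1, an inhibitor of helix-loop-helix factors, averaged 63.4 ± 6.17 CPM in mutant mice and 80.2 ± 4.45 CPM in wild-type mice without overlap (SD, log2 fold change -0.34 ± 0.09 SE, adjusted p = 0.259). Ets1, a factor related to PU.1 in its DNA-binding domain, averaged 7.49 ± 1.5 CPM in mutant mice and 12.02 ± 3.06 CPM in wild-type mice (log2 fold change -0.68 ± 0.19 SE, adjusted p = 0.302). Summed mast cell and basophil markers, a list that holds Gata2, ran from 29.2 to 36.0 CPM in mutant mice and from 40.1 to 57.5 CPM in wild-type mice. Gata2 itself made up most of that gap. Of the 3 markers tested, 2 had a log2 fold change below 0 and 1 above, with 0 called. Mcpt8, the next most abundant of the 8 markers, averaged 10.96 ± 2.75 CPM in mutant mice and 8.12 ± 2.26 CPM in wild-type mice. Cpa3 went the other way, from 0.803 to 2.09 CPM in mutant mice and from 1.896 to 9.398 CPM in wild-type mice. The other 5 averaged under 1 CPM. Among them, Prss34 averaged 0.0237 CPM in mutant mice and 1.33 CPM in wild-type mice, with overlap, and Tpsb2 was at 0 in every mouse. Summed megakaryocyte and platelet markers ran from 3.01 to 5.43 CPM in mutant mice and from 5.94 to 6.71 CPM in wild-type mice, with Gp1ba among the markers at 0 in every mouse. That gap lay in Itga2b, for an integrin subunit and the only called gene on the list, which averaged 0.670 ± 0.240 CPM in mutant mice and 2.48 ± 0.448 CPM in wild-type mice (SD, adjusted p = 0.0427 in edgeR). The call ended without mutant mouse 7, 8, 10 or 12 or wild-type mouse 3 or 4, when edgeR called no gene at all. Gp9, the most abundant marker of that list, averaged 3.49 ± 0.843 CPM in mutant mice and 3.10 ± 0.103 CPM in wild-type mice. The part of such cells in the Gata2 difference was not tested.

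The list of C/EBP-dependent granulocyte genes holds granule proteins, cytokine receptors, surface proteins and Gfi1. Of its 23 genes 22 were tested, 11 with a log2 fold change above 0 and 11 below, with a median of 0.0035, and 1 was called. At an unadjusted p under 0.05 in edgeR, 4 were lower and 2 higher. Fcnb, which encodes the secreted lectin ficolin B, fell to 14.7, 7.99, 9.77, 9.62 and 13.2 CPM in mutant mice 6, 7, 8, 10 and 12, against 23.1, 27.8, 21.9 and 32.6 CPM in wild-type mice 1, 2, 3 and 4. Its log2 fold change was -1.26 ± 0.18 (SE, adjusted p = 0.0368 in edgeR), with every mutant mouse below every wild-type mouse. The direction held under all 20 alternatives tried and the call under 8 of them. Leaving out any mouse other than mutant mouse 6 ended the call, with adjusted p between 0.0507 and 0.140, and so did the total count as a covariate (-1.09, adjusted p = 0.839).

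Camp, for the granule peptide cathelicidin, averaged 139 ± 47.7 CPM in mutant mice and 386 ± 129 CPM in wild-type mice, without overlap (log2 fold change -1.47 ± 0.27 SE, adjusted p = 0.115). DESeq2 called it (adjusted p = 0.00377), as did edgeR with no low-count filter and limma-voom on the 18 libraries, 3 of the 20 alternatives. Ltf, for the granule protein lactoferrin, ran the other way, with 13.5 ± 4.43 CPM in mutant mice and 4.82 ± 3.67 CPM in wild-type mice (log2 fold change 1.47 ± 0.39 SE, adjusted p = 0.259). Without wild-type mouse 2, which at 10.2 CPM was well above the other wild-type mice, the log2 fold change of Ltf was 2.15 and its adjusted p 0.0457. Summed late neutrophil markers overlapped, from 136 to 276 CPM in mutant mice and from 155 to 306 CPM in wild-type mice.

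Of 26 monocyte and phagocyte genes that depend on PU.1 or IRF8, 22 were tested, 3 with a log2 fold change above 0 and 19 below, with a median of -0.12 and 0 called by edgeR. At an unadjusted p under 0.05, 2 were lower and 0 higher. Cybb, for the catalytic subunit of the phagocyte oxidase, had 31.0 ± 10.9 CPM in mutant mice and 50.5 ± 17.6 CPM in wild-type mice (log2 fold change -0.71 ± 0.27 SE, adjusted p = 0.408). Klf4, a monocyte factor, averaged 0.640 CPM in mutant mice and 1.29 CPM in wild-type mice, near the limit of 3 counts, which was 0.118 to 0.255 CPM depending on the mouse. Tlr4, the receptor for bacterial lipopolysaccharide, averaged 2.44 ± 0.61 CPM in mutant mice and 1.56 ± 0.72 CPM in wild-type mice (log2 fold change 0.62 ± 0.32 SE, adjusted p = 0.544). Summed monocyte and macrophage markers overlapped, from 756 to 1544 CPM in mutant mice and from 729 to 1487 CPM in wild-type mice. Most of that sum was Ly6c2, at 1132 ± 296 CPM in mutant mice and 990 ± 344 CPM in wild-type mice. Of the 8 markers tested, 6 had a log2 fold change below 0 and 2 above, with a median of -0.33 and 0 called. Adgre1, for the macrophage antigen F4/80, did not overlap between the groups, with 27.8 ± 3.64 CPM in mutant mice and 40.1 ± 4.92 CPM in wild-type mice (adjusted p = 0.176). The part of such cells in the differences of the factor genes was not tested.

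All 18 progenitor genes linked to MYB and RUNX1 were tested, 6 with a log2 fold change above 0 and 12 below, with a median of -0.10 and 0 called by edgeR. At an unadjusted p under 0.05, 2 were higher and 2 lower. Mybl2, a relative of Myb that acts in the cell cycle, had 53.1, 55.7, 64.0, 78.4 and 62.7 CPM in mutant mice 6, 7, 8, 10 and 12, against 44.1, 39.5, 50.3 and 47.2 CPM in wild-type mice 1, 2, 3 and 4. Its groups did not overlap, with the mutant mice above, and its log2 fold change was 0.47 ± 0.12 (SE, adjusted p = 0.254). Kit, the stem cell factor receptor, had 19.0 ± 2.45 CPM in mutant mice and 25.6 ± 1.99 CPM in wild-type mice, without overlap (log2 fold change -0.43 ± 0.11 SE, adjusted p = 0.254). Ets1, given above, had the next smallest p on this list.

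The difference in Mybl2 stood beside those of the G2 and M phase genes, and the differences of the factor genes beside those of early response genes. The log2 fold change lay above 0 for all 19 G2 and M phase genes (median 0.27), and edgeR called 0 of them. At an unadjusted p under 0.05 in edgeR, 11 were higher, against 4.96% over all tested genes. Aurkb, a mitotic kinase, averaged 174 ± 8.43 CPM in mutant mice and 138 ± 16.7 CPM in wild-type mice (log2 fold change 0.33 ± 0.10 SE, adjusted p = 0.307). Top2a, for the topoisomerase of dividing cells, averaged 331 ± 19.3 CPM in mutant mice and 270 ± 22.2 CPM in wild-type mice (0.29 ± 0.09 SE, adjusted p = 0.323), and Ndc80, for a kinetochore protein, 56.3 ± 5.15 CPM in mutant mice and 45.9 ± 2.41 CPM in wild-type mice (0.29 ± 0.09 SE, adjusted p = 0.311).

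Of 20 early response genes, which are transcribed soon after a stimulus, 17 were tested, 2 with a log2 fold change above 0 and 15 below, with a median of -0.40. None was called by edgeR, with 5 lower and 1 higher at an unadjusted p under 0.05, against 4.89% and 4.96% over all tested genes. Ier3 averaged 17.8 ± 3.78 CPM in mutant mice and 26.2 ± 6.08 CPM in wild-type mice (log2 fold change -0.56 ± 0.18 SE, adjusted p = 0.337). Btg2 averaged 5.36 ± 0.66 CPM in mutant mice and 8.28 ± 3.28 CPM in wild-type mice (adjusted p = 0.408), and Dusp1, a phosphatase of MAP kinases, 5.31 ± 1.15 CPM in mutant mice and 8.99 ± 4.39 CPM in wild-type mice (adjusted p = 0.426). Their summed level ran from 232 to 389 CPM in mutant mice and from 277 to 569 CPM in wild-type mice. The part of either gene group in the differences of the factor genes was not tested.

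**Figure D4:**
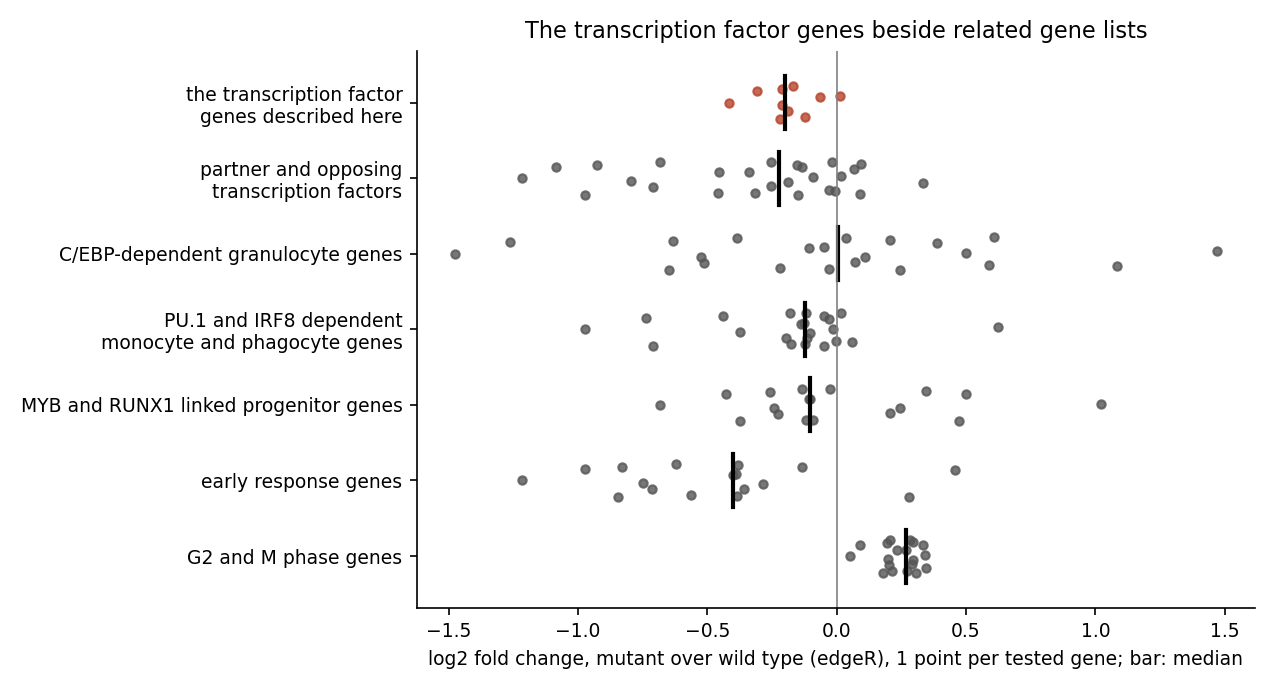
Log2 fold change of every tested gene, mutant over wild type (x axis, edgeR), for the 10 transcription factor genes (red) and the lists of related genes (grey), with the median of each as a black bar. The factor genes and their partner factors have medians of -0.20 and -0.22, the C/EBP-dependent granulocyte genes lie on both sides of 0, and the G2 and M phase genes all lie above 0.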

How the data were processed

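RNA of sorted leukemia stem cells was read in 18 libraries of 9 mice. The authors deposited estimated counts per gene and library, for 54347 genes. Salmon 1.3, bcl2fastq, FastQC and the build GRCm38 are named, without roles, in the submitters' processing notes. The annotation, the strand setting, any molecular identifiers and how transcripts became genes were not given in the sources used here. Values that were not whole made up 11.3%. Gene symbols came from GENCODE mouse release 21, which matched 54094 IDs; the 253 others held 0.00977% of the counts.

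From these counts, the 2 libraries per mouse were added and rounded, and mice were the replicates. Library totals ran from 3825500 to 15071673. Nothing in the labels says how the mice were bred or processed in time. Counting intervals and floors cover counting error only. The quasi-likelihood F-test of edgeR 4.0.16 (R 4.3.3, TMM, filterByExpr at a minimum count of 10, 2-sided) tested 12973 genes with Benjamini-Hochberg adjustment over all of them, called at 0.05. Standard errors were obtained from the log2 coefficient and its F. Ratios within a mouse used a pseudocount of 0.5 and an exact permutation test. Alternatives were DESeq2 1.42.0, limma-voom (limma 3.58.1), other factors and filters, each library alone, the total count as a covariate, and leaving out each mouse or the first library of mutant mouse 7. The edgeR fit was checked on simulated data with known changes.

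The 10 genes, the lists and markers, and the alternatives were chosen with earlier results of these data known. The genes named are all 10 members, the 3 tested genes of each list with the smallest p, and the 3 genes most like each of Cebpa, Cebpe, Spi1, Irf8 and Myb. Single genes of the marker lists were named after their values were seen. Erythroid (22.5 to 64.2 CPM mutant, 15.8 to 60.2 CPM wild type), dendritic (175 to 264 CPM mutant, 165 to 243 CPM wild type), stromal and endothelial (33.4 to 47.8 CPM mutant, 37.8 to 51.7 CPM wild type), B cell (127 to 215 CPM mutant, 164 to 228 CPM wild type), T and NK cell (102 to 194 CPM mutant, 89.7 to 144 CPM wild type) and leukemic progenitor (1533 to 2961 CPM mutant, 1854 to 2100 CPM wild type) marker sums overlapped between the groups. The T and NK cell sum was mostly Nkg7, with means of 136 CPM in mutant mice and 126 CPM in wild-type mice. In that list 9 of 10 markers averaged under 1 CPM. The dendritic sum was mostly Bst2 (means of 202 CPM mutant, 206 CPM wild type), with 6 of 8 markers under 1 CPM. The stromal and endothelial sum was mostly Pecam1 (means of 37.4 CPM mutant, 43.6 CPM wild type), with 8 of 9 markers under 1 CPM. On average the largest part of the progenitor sum was Mpo, at 437 to 1962 CPM in mutant mice and 707 to 926 CPM in wild-type mice. Of the 10 progenitor markers, 8 had a log2 fold change below 0 and 2 above, with a median of -0.17 and 0 called by edgeR. All 4 B cell markers tested lay below 0, with 0 called.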

Additional observations from a re-analysis of the deposited data

Results flagged for a closer look

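The log2 ratio of Cebpa to Spi1 counts was -2.75 in mutant mouse 6, apart from the other 4 mutant mice, which lay between -2.35 and -2.22. In that mouse Cebpa was the lowest of all 9 mice, at 21.5 CPM, while Spi1, at 144.7 CPM, was within the range of the other mutant mice. Of 28 groups of values looked at in this way, 1 stood out; chance does so in about 1 in 20 groups.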

How the results depend on the processing

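Over all genes, the number called was 9 with edgeR, 88 with DESeq2 (the 9 among them), 61 with limma-voom on 18 libraries with the mouse random, 21 with no low-count filter, 3 with the second libraries alone, and 0 when genes under a mean of 10 CPM were left out, for the first libraries alone, with total count as covariate, or without the first library of mutant mouse 7. Leaving out a mouse gave 0 to 7 calls: 7 without mutant mouse 6, 2 without wild-type mouse 1, 4 without wild-type mouse 2, and 0 without any of the other 6. The cause was not tested. Of the 10 factor genes, 0 were called with edgeR and 1 with limma-voom on 18 libraries (Cebpe, -0.42), and 9 or 10 had a log2 fold change below 0 under every alternative run. Of 210 log2 fold changes of these genes under alternatives, 203 kept their sign and 7 did not. Among those kept is the value of each gene under a threshold of 0.1, which repeats the main fit and could not change. Cebpg turned to -0.00052 with upper-quartile factors and to -0.18 with the first libraries alone, was 0.18 with the second libraries alone, and ranged from -0.069 to 0.064 with a mouse left out. Irf8 ranged from -0.20 to 0.015 with a mouse left out and was -0.30 with total count as covariate. Of 56 ratio differences, 6 changed sign. Cebpb over Cebpa was -0.059 with the first libraries alone, and Cebpa over Spi1 was -0.0022 without the first library of mutant mouse 7. With a mouse left out, the difference ranged from -0.051 to 0.12 for Cebpa over Spi1, from -0.071 to 0.14 for Cebpb over Cebpa, from -0.33 to -0.13 for Cebpe over Cebpa and from -0.31 to 0.095 for Gfi1 over Irf8. At an unadjusted p under 0.05, between 1 (without wild-type mouse 2, where 3.98% of tested genes were lower at that level) and 4 (without mutant mouse 10, 4.80%) of the 10 genes were lower when a mouse was left out, and 0 with depth as covariate (2.44%). No paired analysis was possible because mouse numbers are not shared between the groups.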
